A study of Arabidopsis thaliana with 8 samples.

Results

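Small RNA loci on the arms of the 5 Arabidopsis chromosomes that span at most 200 nt were examined in phloem exudates of iron-deficient (−Fe) and iron-replete (+Fe) plants. Members were the loci named ath-b10r1- in the deposited table that start outside fixed windows around the centromeres and overlap no annotated miRNA precursor there. These windows run over 11.5 to 17.7 Mb on chromosome 1, 1.1 to 7.2 Mb on chromosome 2, 10.3 to 17.3 Mb on chromosome 3, 1.5 to 6.3 Mb on chromosome 4 and 9.0 to 16.0 Mb on chromosome 5. The rule gave 521 of 20347 loci, or 2.56%. Of the 721 loci with such names and at most 200 nt, 595 start outside the windows. Of these, 68 overlap a precursor, and 6 more were left out by number. Those 6 loci held 5173233 counts, 3.01 times as many as all members together, and are not described here. The members spanned 19 to 200 nt (median 126 nt). Apart from the 6 numbers, the rule used position, length and overlap with a precursor, no count.

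The 8 libraries form 2 groups, 4 −Fe and 4 +Fe, labelled as biological replicates. All plants were wild type Col-0 (genotype WT) and grew for 11 days on ½ MS medium with iron. They were then moved for 3 days to medium without iron (−Fe) or to fresh medium with iron (+Fe). Exudate was let out of cut rosettes, with many rosettes pooled per sample, and the RNA was isolated with a kit for cell-free RNA. The exudate is a bulk sample without cells of its own and the table holds small RNA loci only, so the tissue label could not be checked against marker transcripts, and fewer contributing cells cannot be told apart from less RNA per cell.

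Plant small RNAs come from several sources. Dicer-like enzymes cut double-stranded RNA into miRNAs and siRNAs, and the siRNAs that guide DNA methylation arise mostly from transposons and repeats. Other short RNAs are pieces of abundant structured RNAs such as tRNAs, which carry amino acids to the ribosome, or snoRNAs, which guide the processing and modification of rRNA. The sieve elements of the phloem lack a nucleus and carry proteins and RNAs between organs along with sugars.

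Library totals ranged from 10347644 to 14116739 counts. Counts were also expressed as CPM, relative to the total of the library. Where a locus has a count of 0, the depth allows for 3 counts, or 0.213 to 0.290 CPM. The reads carry no molecular identifiers and may be copies of 1 molecule, so this floor covers only the error of counting. The +Fe replicates 2 and 4 had the lowest totals and a count at 12117 and 11269 loci of the table, whereas the 4 −Fe libraries had one at 14214 to 16201 loci and the other 2 +Fe libraries at 14585 and 14291. The part of these differences in the results below was not tested, and counts of calls without those 2 libraries are given beside the main ones.

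The short arm loci were mostly sparse. Together they held 1719741 counts, 1.78% of the 96628856 counts in the table. No library had a count at 163 of the 521 (31.3%), against 5.60% of the 13005 longer arm loci and 7.30% of the 6166 pericentromeric loci. A count in all 8 libraries was found at 124 (23.8%), against 36.8% of the longer arm loci and 54.4% of the pericentromeric loci. These 124 held 99.5% of the members' counts. At the other end, 60 members were counted in 1 library only and held 535 counts between them. The median member had 18 counts over the 8 libraries, the upper quartile was 93 and the upper decile 715. Longer arm loci had a median of 101 counts and pericentromeric loci one of 215.

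Per length the order was another. The median was 15.5 counts per 100 nt at the short arm loci, 10.8 at the longer arm loci and 12.4 at the pericentromeric loci. Among loci with a count the medians were 38.3, 12.3 and 14.4. For the 354 members at no tRNA, snRNA or snoRNA gene the median was 11.6, below that of all pericentromeric loci. Among those of them with a count it was 25.2. The other parts were not taken without such genes. Above 100 counts per 100 nt lay 22.1% of the short arm loci, 13.0% of the longer arm loci and 9.67% of the pericentromeric loci. Above 1000 per 100 nt lay 7.87%, 0.823% and 0.422%. The short loci thus had both the larger share without a count and the larger share at high counts per length. Locus length enters these values on both sides, since it also chose the members, and no test was made of them.

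**Figure D1:**
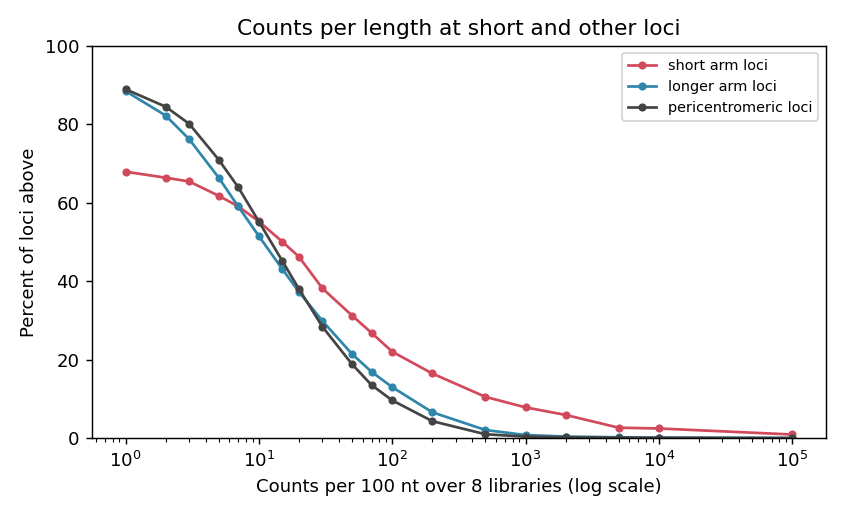
Percent of loci (y axis) with more than a given number of counts per 100 nt over the 8 libraries (x axis, log scale), for short arm loci, longer arm loci and pericentromeric loci. The curve of the short arm loci starts lowest, at 67.9% above 1 count per 100 nt, and is the highest of the 3 from 10 counts per 100 nt on.

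The 3 members of 200 nt with the most counts were ath-b10r1-20018 with 106, ath-b10r1-1997 with 45 and ath-b10r1-13927 with 44. The 3 arm loci of 201 nt with the most counts, just outside the limit, had 7, 1 and 0. Within the members, those of 121 to 160 nt held 53.5% of the counts (125 loci), those of 81 to 120 nt 30.4% (155 loci) and those of 161 to 200 nt 13.7% (154 loci). The 39 members of 41 to 80 nt held 2.13% and the 48 of at most 40 nt 0.346%. The share without a count was 43.8% in the shortest class and 27.3% in the longest. By chromosome, 133, 85, 103, 78 and 122 members lay on chromosomes 1 to 5 and held 23.4%, 9.18%, 12.6%, 27.1% and 27.8% of the counts.

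A handful of loci carried nearly all the counts. The member with the most held 24.6% of the members' counts, the leading 5 held 76.7% and the leading 10 held 91.2%. At the longer arm loci the leading 1, 5 and 10 held 24.7%, 69.0% and 76.8%. At the pericentromeric loci they held 80.5%, 84.1% and 85.1%. A total of 3 members sufficed for 50% of the counts, 9 for 90% and 72 for 99%. In the single libraries the leading 10 of that library held 88.9% to 92.5%, and 3 loci sufficed for 50% in each. Among the 13005 longer arm loci 3 also sufficed for 50%, but 555 were needed for 90%. Among the 6166 pericentromeric loci the numbers were 1 and 245. The members number only 521, so these numbers of loci are not shares of like sets. Adding the 6 loci left out by number would put the share of the leading 10 at 92.1%.

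**Figure D2:**
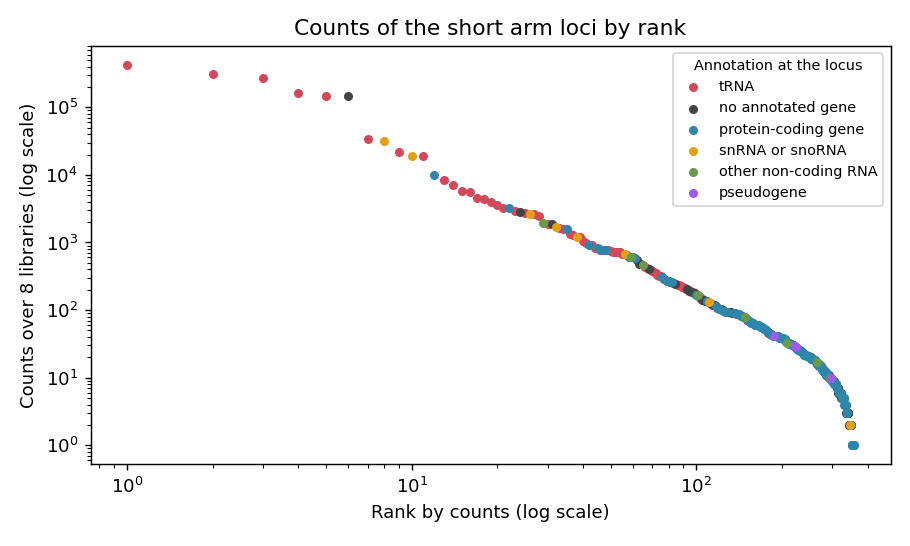
Counts over the 8 libraries (y axis, log scale) of the 358 members with a count, by rank (x axis, log scale), each point 1 locus, coloured by the annotation at the locus. The 5 loci with the most counts lie at tRNA genes, the sixth at no annotated gene, and the counts range over more than 5 decades, with 423271 at the first.

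Most of these counts lay at tRNA genes. A tRNA gene overlapped 159 members (30.5%), which held 1478339 counts or 86.0% of the members' counts. Of the longer arm loci 1.95% and of the pericentromeric loci 0.681% lay at a tRNA gene. Such loci held 78.5% of the counts of the longer arm loci and 0.376% of those of the pericentromeric loci. Counts mostly at tRNA genes were thus found at the longer arm loci as well. Members at no annotated gene numbered 113 with 9.03% of the counts, and 93.1% of that came from 1 locus. The 223 members at protein-coding genes only, the most numerous class, held 1.48%. The 8 at snRNA or snoRNA genes held 3.33%, the 11 at other non-coding RNA genes 0.195% and the 7 at pseudogenes 0.00692%. No member lay at an rRNA gene or at an annotated miRNA gene. Of the 124 members counted in all libraries, 85 lay at tRNA genes and 16 at protein-coding genes.

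The tRNA members, which exclude the loci left out by number, were a minor source of tRNA counts in the whole table. They made up 34.6% of the 459 loci at tRNA genes but held 4.09% of the counts there. The loci left out by number held 5173233 counts, 3.01 times as many as all members together. Their part in the tRNA counts was not tested, so the 4.09% does not describe all short arm loci at tRNA genes. All 20 amino acid isotypes were present among the tRNA members. A median of 60.3% of the locus lay inside the tRNA gene, and in 104 of the 159 the gene took at least 50% of the locus. Without strand in the counts, the 29 that also overlap a protein-coding gene cannot be assigned to one or the other.

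Isotypes differed widely in counts. The 4 tRNA-His loci held 40.5% of the members' counts, all of it at 2 of them. The 14 tRNA-Ala loci held 20.2%, the 7 tRNA-Glu loci 11.4% at 2 loci with a count, and the 10 tRNA-Asp loci 9.59% at 3 loci with a count. Each other isotype held under 1%, with tRNA-Cys (14915 counts at 4 loci) and tRNA-Arg (12257 counts at 11 loci) next, and tRNA-Pro lowest (250 counts at 8 loci). The 7 tRNA-Gly loci held 8248 counts, 0.480%. In CPM, the tRNA-His loci summed to 8036 ± 1695 in −Fe and 6284 ± 1190 in +Fe (SD, n = 4 each).

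The most counted member was ath-b10r1-15024, at chr5:25875334-25875472 (139 nt, build TAIR10) over the tRNA-His gene AT5G64735. It had 5129, 5980, 3995 and 4766 CPM in −Fe replicates 1 to 4, against 3946, 3223, 4892 and 2709 CPM in +Fe replicates 1 to 4. The groups overlapped, since +Fe 3 lay above −Fe 3 and −Fe 4, and +Fe 2 and +Fe 4 were the lowest. The means were 4968 ± 824 CPM in −Fe and 3692 ± 947 CPM in +Fe (SD, n = 4 each; exact two-sided permutation test, p = 0.114). In edgeR, after scaling by TMM factors (which set each library by its typical locus rather than its total), the log2 fold change was 0.62, with an unadjusted p of 0.0140 and a Benjamini-Hochberg adjusted p of 0.645. It led the members in 6 libraries, while ath-b10r1-15473 led in +Fe 2 and +Fe 4.

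The other tRNA-His locus, ath-b10r1-314 at chr4:901168-901267 (100 nt), lies over AT4G02055, within the region of the protein-coding gene PRL, which encodes a subunit of the MCM helicase that opens DNA for replication. It had 2541, 4547, 2886 and 2298 CPM in −Fe, against 2013, 2873, 3059 and 2422 CPM in +Fe. Its −Fe 2 library stood above all others, and the remaining 7 overlapped. The difference of means was 476 CPM over the 4 libraries a group (exact permutation p = 0.543) and −16.5 CPM without −Fe replicate 2. With TMM scaling the values were 2788, 3897, 3041 and 3095 CPM in −Fe, against 2216, 2521, 2701 and 2128 CPM in +Fe. On that scale the groups did not overlap and differed by 814 CPM (exact permutation p = 0.0286, the smallest it can give), so whether the groups overlap at this locus depended on the scaling.

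The leading tRNA-Ala locus was ath-b10r1-15473, at chr1:2025275-2025430 (156 nt, AT1G06610), with 312870 counts. It had 3131, 5349, 2638 and 2601 CPM in −Fe, against 2247, 3392, 3540 and 3064 CPM in +Fe. The same −Fe 2 library was highest here. Without it, the difference of means, −Fe minus +Fe, was −271 CPM in place of 369 CPM (exact permutation p = 0.771), and with TMM scaling of all 8 libraries it was 759 CPM (exact permutation p = 0.0857). A shorter tRNA-Ala locus, ath-b10r1-10533 (chr3:23036876-23036964, AT3G62245), averaged 237 ± 67.7 CPM in −Fe and 220 ± 39.9 CPM in +Fe (SD, n = 4 each), with overlapping groups and again −Fe 2 highest. Its difference was −8.68 CPM without −Fe replicate 2 and −1.20 CPM without +Fe replicate 1, in place of 17.7 CPM, and 50.3 CPM with TMM scaling.

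The tRNA-Glu and tRNA-Asp leaders were steadier or moved with another library. At ath-b10r1-2110 (chr4:10301940-10302089, 150 nt, tRNA-Glu AT4G18725) the libraries had 1449, 1774, 1801 and 1743 CPM in −Fe, against 1608, 1898, 1633 and 1528 CPM in +Fe. The means of 1692 ± 164 CPM in −Fe and 1667 ± 161 CPM in +Fe differed by less than the spread (SD, n = 4 each; exact permutation p = 0.829). With TMM scaling the difference was 284 CPM in place of 24.9 CPM (exact permutation p = 0.257), and the groups still overlapped. At ath-b10r1-9941 (chr3:19033381-19033473, 93 nt, tRNA-Asp AT3G51265) they had 858, 1320, 1761 and 1767 CPM in −Fe, against 1458, 1825, 1654 and 1387 CPM in +Fe. Here −Fe 1 was the lowest library, and the difference of −154 CPM became 35.1 CPM without it and 106 CPM after TMM scaling. Direction at this locus therefore hung on 1 library and on the scaling. The second tRNA-Glu locus, ath-b10r1-16677 (chr1:10207314-10207383, 70 nt, AT1G29210), averaged 351 ± 32.3 CPM in −Fe and 346 ± 40.8 CPM in +Fe (SD, n = 4 each), a difference of 4.84 CPM that was 58.6 CPM with TMM scaling.

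**Figure D3:**
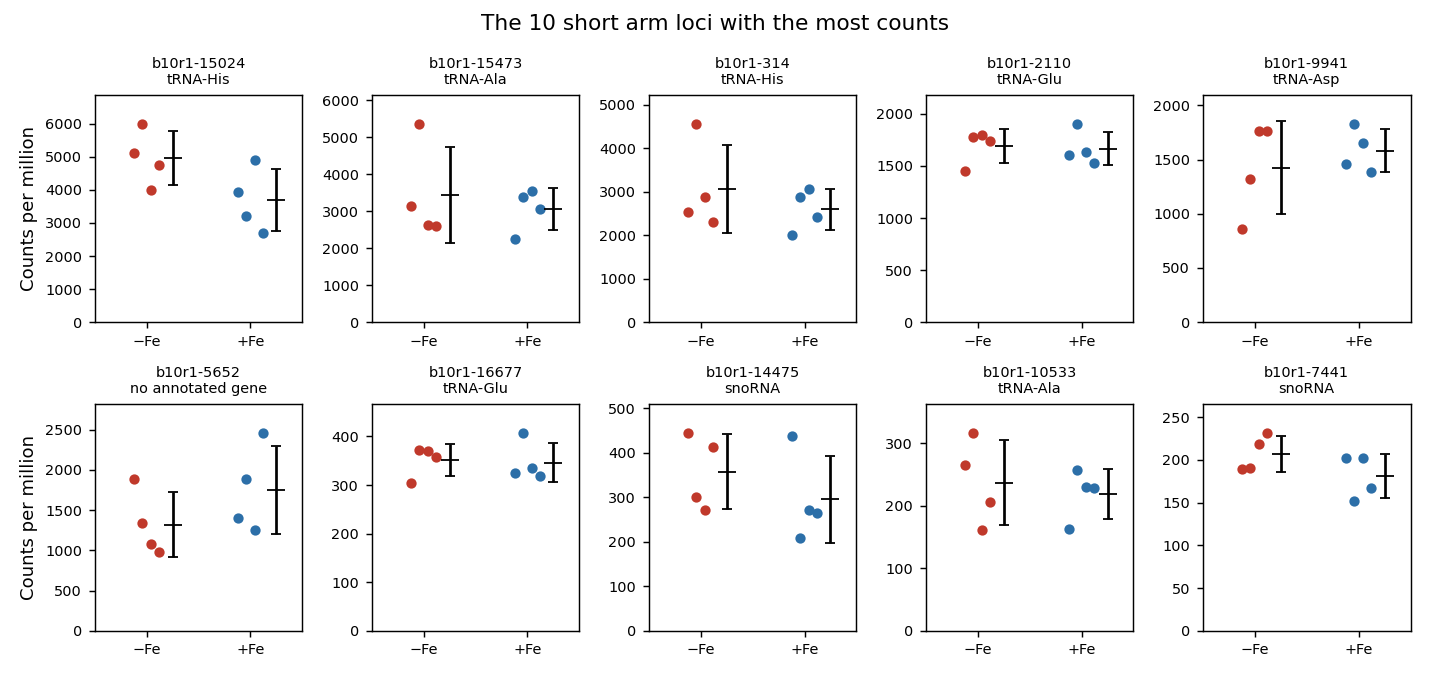
CPM (scaled by library totals; y axis, from 0) of the 10 members with the most counts in the 4 −Fe and 4 +Fe libraries, each point 1 library and the bars the mean ± SD of the group. In every panel the groups overlap, and −Fe 2 is the highest library at ath-b10r1-15473 (5349 CPM) and ath-b10r1-314 (4547 CPM).

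Members of 1 isotype kept nearly fixed ratios in some families and not in others. The ratio of counts was taken in each library for every pair of the 33 members with at least 100 counts in each library. The smallest coefficient of variation (CV) over the 8 libraries among the 528 pairs was 1.75%, for the tRNA-Asp loci ath-b10r1-9941 and ath-b10r1-16167, whose ratio ran from 7.58 to 7.99. Next came the tRNA-Glu loci ath-b10r1-2110 and ath-b10r1-16677, with a ratio of 4.67 to 4.95 (CV 1.84%). The 6 pairs with the smallest CV were all of 1 isotype, among them the tRNA-Ala pairs ath-b10r1-15473 with ath-b10r1-10611 (3.08%) and ath-b10r1-10533 with ath-b10r1-10511 (3.25%).

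Between those tRNA-Ala pairs the ratio was looser, 11.8 to 16.9 for ath-b10r1-15473 over ath-b10r1-10533 (CV 12.8%). The tRNA-His loci ath-b10r1-15024 and ath-b10r1-314 had ratios of 2.02, 1.32, 1.38 and 2.07 in −Fe, against 1.96, 1.12, 1.60 and 1.12 in +Fe (CV 25.3%). The tRNA-Arg loci ath-b10r1-6833 and ath-b10r1-7240 varied most among pairs of 1 isotype, from 0.741 to 9.06 (CV 65.5%). The median CV was 15.5% over the 21 pairs of 1 isotype and 38.6% over the 507 other pairs. These pairs share loci and libraries and are described without a test. Near-identical tRNA genes can share reads that the counting divides between them, so counts of single copies are uncertain wherever copies share a sequence.

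**Figure D4:**
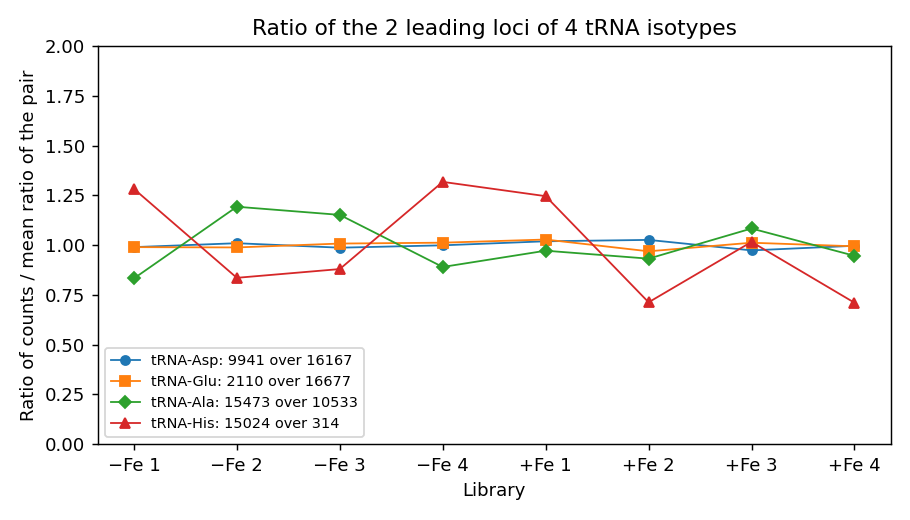
Ratio of counts of the 2 most counted members of 4 tRNA isotypes in each library, divided by the mean ratio of the pair (y axis), for the 4 −Fe and 4 +Fe libraries (x axis). The tRNA-Asp and tRNA-Glu pairs stay close to 1 (CV 1.75% and 1.84%), and the tRNA-His pair varies most (CV 25.3%).

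The snoRNA members were few, but 2 of the 8 stood among the leading 10. The most counted was ath-b10r1-14475 at chr5:21945351-21945543 (193 nt), which overlaps U3D, a gene for the U3 snoRNA of rRNA precursor cleavage, and HSFA9, a heat stress transcription factor of seeds. It had 444, 300.3, 273 and 413 CPM in −Fe, against 437, 209, 272 and 265 CPM in +Fe. Libraries −Fe 1, −Fe 4 and +Fe 1 were high. Among the rest, the −Fe libraries lay above the +Fe libraries, though by little at the closest (273 against 272 CPM). The groups thus overlapped through +Fe 1 alone (exact permutation p = 0.257). The difference of 61.9 CPM was 113 CPM with TMM scaling. The next, ath-b10r1-7441 (chr3:5387111-5387280, 170 nt, snoRNA gene AT3G03175 in the region of AT3G15920), averaged 207 ± 21.0 CPM in −Fe and 181 ± 25.4 CPM in +Fe (SD, n = 4 each; exact permutation p = 0.171), and its difference of 26.2 CPM was 57.5 CPM with TMM scaling.

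Both Arabidopsis fibrillarin genes had a member. Fibrillarin is the methyltransferase of box C/D snoRNA complexes, and its genes host a U60 snoRNA. The member ath-b10r1-14383 at FIB1 and U60.1F averaged 29.1 ± 4.97 CPM in −Fe and 25.8 ± 8.04 CPM in +Fe (SD, n = 4 each). The member ath-b10r1-2515 at FIB2 and U60.2F averaged 11.4 ± 4.99 CPM in −Fe and 13.6 ± 5.53 CPM in +Fe. These loci were chosen after their values were seen, and the groups overlapped at both. None of the 7 snRNA or snoRNA members tested had an unadjusted edgeR p under 0.05.

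One locus without an annotated gene ranked sixth. This was ath-b10r1-5652 at chr2:12333745-12333911 (167 nt), next to the protein-coding gene AT2G28755, with 144483 counts or 8.40% of the members' counts. It had 1891, 1335, 1084 and 976 CPM in −Fe, against 1408, 1886, 1249 and 2456 CPM in +Fe. The highest value was in +Fe 4 and the lowest in −Fe 4, with overlap between (means 1322 ± 408 CPM in −Fe and 1750 ± 543 CPM in +Fe, SD, n = 4 each; exact permutation p = 0.257). The difference of −428 CPM was −197 CPM with TMM scaling. Of the remaining members without a gene, ath-b10r1-7335 was the most counted. It spans 26 nt at chr3:4655046-4655071 near RSH2, a synthetase of the alarmone ppGpp in plastids, and had 429, 322, 167 and 268 counts in −Fe, against 417, 411, 370 and 473 counts in +Fe. Members at no tRNA, snRNA or snoRNA gene numbered 354, and ath-b10r1-5652 alone held 78.5% of their 184157 counts.

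At protein-coding genes, ath-b10r1-300 had the most counts. It spans 85 nt at chr4:822590-822674 in GLB1 (AT4G01900), which encodes the plant PII protein, a plastid sensor of carbon and nitrogen state. It had 1598, 2043, 964 and 1159 counts in −Fe, against 866, 984, 1373 and 1093 counts in +Fe. In CPM, −Fe 1 and −Fe 2 were highest and the other 2 −Fe libraries lay within the +Fe range (120 ± 41.5 CPM in −Fe and 90.8 ± 20.1 CPM in +Fe, SD, n = 4 each; exact permutation p = 0.286). Its edgeR log2 fold change was 0.61, with an unadjusted p of 0.0106, the smallest among the members, and a Benjamini-Hochberg adjusted p of 0.645. The next 2 were ath-b10r1-6002 in IMB1, a bromodomain protein gene, with 3197 counts, and ath-b10r1-4905 in AT2G19060, with 1593 counts. The most counted members at the 2 remaining classes were ath-b10r1-16636 (chr1:9938595-9938780), at the non-coding RNA genes AT1G09035 and AT1G06147, with 19.7 ± 7.52 CPM in −Fe and 21.5 ± 7.48 CPM in +Fe, and ath-b10r1-5823, at the pseudogene AT2G31520, with 42 counts in all.

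A gene can hold more than 1 member. Of the 242 protein-coding genes with a member, 15 had several, up to 4 at AT1G09210, and 20 neighbouring members lay less than 1000 nt apart. Members within 1 gene region may share a source and are not counted as replicates.

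Members at genes of iron homeostasis were 2. Of 40 such genes on a list drawn up for this comparison, 16 had a locus of any length in the table, 30 loci in all, and 2 of those loci (6.67%, against 2.56% of all loci) were members. One was ath-b10r1-2174 in IRT1, the iron uptake transporter of roots, with 0 counts. The other was ath-b10r1-1952 (chr4:9249399-9249498, 100 nt) in OPT3, a transporter that loads iron into the phloem and takes part in shoot-to-root iron signalling. It had 0 counts in each −Fe library, against 0, 1, 0 and 10 counts in +Fe, so all its counts but 1 were in +Fe 4 (log2 fold change −4.55; edgeR with Benjamini-Hochberg adjustment, adjusted p = 0.652). Of 18 genes of the small RNA machinery, such as Dicer-like and Argonaute genes, 8 had a locus in the table, 17 loci in all, and 0 of these were members.

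The comparison of −Fe with +Fe asked which short arm loci change in exudate RNA under iron deficiency. Summed over the members, the share of library counts was 1.78%, 2.36%, 1.65% and 1.66% in −Fe, against 1.51%, 1.82%, 1.85% and 1.61% in +Fe. The −Fe 2 library was highest and the other 3 −Fe libraries lay within the +Fe range (means 1.86 ± 0.333% in −Fe and 1.70 ± 0.165% in +Fe, SD, n = 4 each). Without −Fe replicate 2 the difference of 0.167 percentage points fell to 0.00262. It was 0.0392 without the most counted member, −0.000684 without the leading 10, and −0.0423 over the members at no tRNA, snRNA or snoRNA gene. A count was present at 216, 249, 259 and 222 members in −Fe, against 232, 188, 212 and 181 members in +Fe. The 2 lowest were +Fe 2 and +Fe 4, the libraries that also had the fewest loci in the whole table. At tRNA genes lay 87.1 ± 3.15% of the members' counts in −Fe and 83.9 ± 3.87% in +Fe (SD, n = 4 each).

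At the level of single loci no change passed the threshold. The tests took loci whose counts summed to 10 or more, which were 298 of the 521 members and left out 223. A call required an adjusted p (Benjamini-Hochberg) under 0.1 and a log2 fold change of 0.5 or more either way. edgeR called 0 members (0.0% of the 17722 loci tested in the table were called), and the smallest adjusted p was 0.645. DESeq2 called 0 members as well (0.192% of all loci, 34 in number), with a smallest adjusted p of 0.216 among the 161 members for which it gave one. Replicates varied widely: over the 33 members with at least 100 counts in each library, the median CV was 29.4% in −Fe (4.73% to 74.0%) and 30.1% in +Fe (9.65% to 76.6%). Their log2 fold changes ran from −0.42 to 0.64.

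At an unadjusted edgeR p under 0.05, 16 members were higher in −Fe (5.37% of those tested, against 4.86% of all loci) and 5 lower (1.68%, against 1.83%). The counts of members lay near the share in the whole table. DESeq2 gave 14 higher and 2 lower at the same limit. Scaled by library totals in place of TMM factors, the split was 10 higher and 11 lower. The scaling moved all loci: their median log2 fold change was 0.07 with TMM factors and −0.12 with library totals, and the members' median lay 0.28 and 0.29 above it. Without +Fe replicate 4 the count of higher members was 7, and without +Fe replicates 2 and 4 it was 12 higher and 5 lower. Of the 16, 12 lay at protein-coding genes (117 tested, median log2 fold change 0.61), 2 at tRNA genes (98 tested, median 0.36) and 2 at no gene (62 tested, median 0.02).

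**Figure D5:**
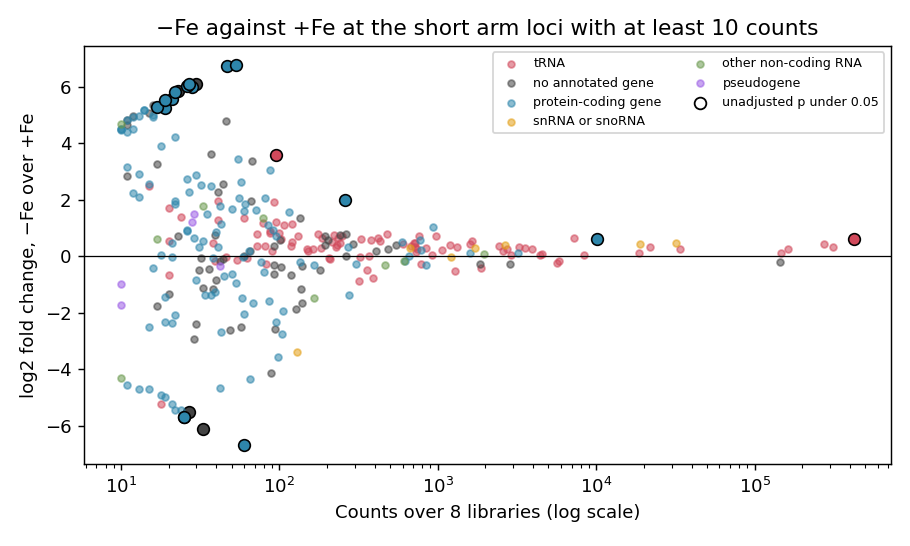
Log2 fold change of −Fe over +Fe from edgeR (y axis) against counts over the 8 libraries (x axis, log scale) for the 298 members with at least 10 counts, each point 1 locus, coloured by annotation. Outlined points have an unadjusted p under 0.05 (16 higher, 5 lower); most of them have few counts, and none passed the adjusted threshold.

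Many of these members were counted in 1 group only. No +Fe library had a count at 30 members tested (10.1%, against 5.98% of all loci), and no −Fe library had one at 15 (5.03%, against 1.57%). More than 50% of the counts came from 1 library at 104 (34.9%, against 20.9%). The members had fewer counts than the table at large, so the shares were also taken among the loci with 10 to 99 counts. There, 17.2% of 174 members and 15.7% of 6739 loci had no count in +Fe, 8.62% and 4.11% had none in −Fe, and 7.47% and 10.7% were higher at an unadjusted p under 0.05. A fitted log2 fold change above 0 was found at 194 members (65.1%, against 53.4% of all loci), and this split by count. With 10 to 99 counts it was found at 60.3% of members and 64.4% of all loci, and with 100 or more at 71.8% of 124 members and 46.7% of 10983 loci. In that upper range 3 members (2.42%, against 1.27% of all loci there) were higher and 0 lower (against 1.78%) at an unadjusted edgeR p under 0.05.

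Besides ath-b10r1-300 and ath-b10r1-15024, the higher members with the smallest p had counts in 3 −Fe libraries each and in no +Fe library. At ath-b10r1-11483 (chr5:6582340-6582493, 154 nt), in AT5G19510, a gene for a subunit of translation elongation factor EF1B, the counts were 14, 29, 0 and 10 in −Fe, against 0 in each +Fe library. At ath-b10r1-5900 (chr2:14019925-14020102, 178 nt), in ATP3, which encodes the gamma subunit of mitochondrial ATP synthase, they were 17, 14, 0 and 16 in −Fe, against 0 in each +Fe library. The −Fe 3 library had none at either locus, so both groups contained zeros and overlapped. With 3 counts allowed in each +Fe library, the mean CPM was at least 4.31-fold higher in −Fe at the first. Without −Fe replicate 2 this bound was 2.74-fold. At the second it was 3.88-fold, and 3.05-fold without −Fe replicate 1. A second member in ATP3, ath-b10r1-5899, lies 79 nt away and had 0, 12, 0 and 7 counts in −Fe, against 0 in each +Fe library. At ath-b10r1-19438 (chr1:25375575-25375724, 150 nt), in AT1G67700, the counts were 11, 3, 14 and 0 in −Fe, against none in +Fe. The bound was 2.42-fold higher, and 1.68-fold without −Fe replicate 3. The loci without a +Fe count passed the filter of 10 counts through −Fe alone, so a high fold was built in. The adjusted p of all of these was 0.645 (edgeR, Benjamini-Hochberg).

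The 5 lower members rested on 1 to 3 +Fe libraries. At ath-b10r1-2199 (chr4:10889420-10889593, 174 nt), in AT4G20150, the counts were 0 in each −Fe library, against 17, 1, 42 and 0 in +Fe, at least 4.43-fold lower in −Fe and 1.73-fold without +Fe replicate 3. A second member in that gene, ath-b10r1-2198, had 15, 10, 20 and 9 counts in −Fe, against 20, 0, 11 and 0 in +Fe. These 2 neighbours thus differed in which group had counts. At ath-b10r1-15507 (chr1:2302501-2302625, no gene) all 33 counts came from +Fe 2. At ath-b10r1-6035 (chr2:15040493-15040624, no gene) 24 came from +Fe 3 and 3 from +Fe 4. At ath-b10r1-10547 (chr3:23132566-23132703, AT3G62530) and ath-b10r1-19513 (chr1:25932079-25932182, tRNA-Phe AT1G68970) all 25 counts came from +Fe 4. For the last 4 the lower bounds were 3.19-fold, 2.07-fold, 2.39-fold and 2.39-fold lower in −Fe, and each rested on the library with most of its counts. Their adjusted p was 0.645 (edgeR, Benjamini-Hochberg). The 5 lower members passed the filter of 10 counts through +Fe alone, so a fold in this direction was likewise built in.

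Every −Fe library lay above every +Fe library in CPM at 6 members tested (2.01%, against 1.64% of all loci), and the reverse held at 0 (1.32% of all loci). Among loci with 10 to 99 counts, the first held at 3.45% of 174 members and 2.88% of 6739 loci. The reverse held there at 0 members and 0.119% of loci, so it was rare at low counts in the whole table. These 6, named here because they did not overlap, had 15 to 95 counts. The most counted was ath-b10r1-19852 (chr1:28440817-28440984, 168 nt, tRNA-Thr AT1G75740), with 35, 20, 13 and 19 counts in −Fe, against 2, 1, 1 and 4 counts in +Fe. Among the 6 it alone had an unadjusted edgeR p under 0.05, with a log2 fold change of 3.58. The edgeR p was 0.0364 unadjusted, and the Benjamini-Hochberg adjusted p was 0.645. The others were ath-b10r1-19362 in AT1G66490, ath-b10r1-14337 in SWI1, a gene of meiotic chromosome cohesion, ath-b10r1-14527 at the tRNA-Met gene AT5G54865, and ath-b10r1-19510 and ath-b10r1-14680 at no gene. Their counts in +Fe were 0 to 6 in each library. The smallest p that an exact two-sided permutation test of 4 against 4 can give is 0.0286, which every locus without overlap reaches by construction.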

How the data were processed

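Small RNA libraries of 4 −Fe and 4 +Fe phloem exudates were used. The authors trimmed adapters (Cutadapt, in the submitters' processing notes), used ShortStack for alignment and quantification, and deposited a table of raw counts for each locus, not normalized; TAIR10 is the build in those notes. 0 count columns were left unused.

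CPM used library totals. Loci with at least 10 counts were fitted over the whole table with edgeR 4.0.16 (limma 3.58.1, R 4.3.3; TMM factors, quasi-likelihood, condition alone), with full library totals and Benjamini-Hochberg adjustment over 17722 loci; DESeq2 1.42.0 was the alternative. Single values were compared by exact two-sided permutation over 70 splits (Python 3.11.15, numpy 2.4.6, pandas 2.3.3, scipy 1.17.1, matplotlib 3.10.9). Scripts were tested on simulated data. With 200 changed loci outside the lowest counts, edgeR recovered 39.5% of 4-fold and 86.0% of 16-fold changes. DESeq2 recovered 45.5% of 4-fold changes and called 95 to 109 unchanged loci over the runs. With such recovery of 4-fold changes, 0 calls do not exclude changes of a few fold. Permutation p-values rank the difference of means among the 70 splits. Those of edgeR set the fold change against the spread between the libraries of a group, estimated partly over all loci tested.

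Features were assigned by overlap of at least 1 nt, without strand, in the order tRNA, rRNA, snRNA or snoRNA, annotated miRNA gene, other non-coding RNA, pseudogene, protein-coding gene, none. Names come from the RefSeq gene table (TAIR10.1), whose coordinates are not printed. Gene lists had 40 iron homeostasis and 18 small RNA machinery genes. Named loci were the 10 members with the most counts, the 5 with the smallest edgeR p in each direction, the most counted of each class, members of at least 10 counts at listed genes, and the 3 loci on each side of the length limit. IRT1, with 0 counts, and other loci outside this rule, such as those in the paragraphs on ratios, fibrillarin genes, several members per gene and non-overlap, were named after their values were seen. Members and lists were chosen with earlier results of these data known. Fold bounds place 3 counts in each library of the group that had none.

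Alternatives were DESeq2, its size factors or library totals within edgeR, an adjusted p of 0.05, filterByExpr or a filter of only 1 count. Others were a replicate block, leaving out each library, other length and detection limits, and TMM-scaled CPM. The members' counts were also divided by the counts outside tRNA and rRNA loci. Leaving out +Fe replicates 2 and 4 together and adding the 6 loci left out by number were chosen after seeing the data. No sequence is printed.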

Additional observations from a re-analysis of the deposited data

Results flagged for a closer look

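Within groups of 4 libraries, 7 of 52 looked at among the named members had a highest or lowest library separated from the nearest other by more than Dixon's 95% critical value of 0.829 of the group's range. For normally distributed values chance gives about 1 in 20 groups. That rate does not apply to groups of mostly zeros, where a count in 1 library alone passes the limit by construction. The number flagged was therefore not compared with it. At ath-b10r1-2110 (tRNA-Glu) −Fe replicate 1 was low, at 1449 CPM. At ath-b10r1-5823 (pseudogene AT2G31520) −Fe replicate 2 was high, at 0.947 CPM. The other 5 were high +Fe libraries at members with few counts. These were ath-b10r1-15507 with 3.19 CPM in +Fe 2, ath-b10r1-6035 with 1.79 CPM in +Fe 3, ath-b10r1-10547 and ath-b10r1-19513 with 2.39 CPM each in +Fe 4, and ath-b10r1-1952 in OPT3 with 0.957 CPM in +Fe 4. The first 4 of these 5 were named for a small unadjusted edgeR p (under 0.05), so their flags are not independent of that choice.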

How the results depend on the processing

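The number of members called was 0 in every edgeR alternative run, in DESeq2, and without any single library. The count of members at an unadjusted p under 0.05 was less stable. Against 16 higher and 5 lower, library totals gave 10 and 11, filterByExpr gave 5 and 0, DESeq2 gave 2 lower and no filter beyond 1 count gave 8 lower. With the replicate number as a block, 9 were higher and 0 lower. Deviations of same-numbered libraries correlated at −0.0116 to 0.0264. Library −Fe 1 correlated best with +Fe 2 (0.0250) and −Fe 2 with +Fe 1 (0.0147). For −Fe 3 and −Fe 4 the same-numbered +Fe library was best (0.0264 and 0.0144). Replicate 2 was highest in both groups at ath-b10r1-6833 (2274 counts in −Fe, 1373 in +Fe) but not at ath-b10r1-15024. The main fit did not pair the samples by number, and the block is given as an alternative. Leaving out 1 library gave 7 to 15 higher and 2 to 8 lower, with 7 without +Fe replicate 4, 10 without +Fe replicate 3, 8 lower without +Fe replicate 1 or 2, and 2 or 3 lower without any 1 −Fe library.

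The difference in share of 0.167 percentage points was 0.628 with the 6 loci left out by number, and 0.00262 to 0.236 without 1 library. It was 1.99 with the library's counts outside tRNA and rRNA loci as the divisor. Members at no tRNA, snRNA or snoRNA gene gave −0.0423 over all counts, so the 1.99 does not describe them. The share of the leading 10 was 94.5% for loci of at most 150 nt and 95.8% up to 250 nt, and members counted in all libraries numbered 81 up to 150 nt.

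With TMM scaling the difference at ath-b10r1-314 was 814 CPM (exact permutation p = 0.0286, against 0.543 by library totals). Differences in CPM changed sign with TMM scaling at ath-b10r1-9941 (106) and ath-b10r1-16636 (0.952), and the log2 fold change of ath-b10r1-5823 was 0.43 with the replicate block. Without 1 library they ran from −271 to 645 at ath-b10r1-15473, −16.5 to 733 at ath-b10r1-314, −21.4 to 106 at ath-b10r1-2110, −268 to 35.1 at ath-b10r1-9941, −4.25 to 24.97 at ath-b10r1-16677, −8.68 to 42.9 at ath-b10r1-10533, −5.35 to 0.746 at ath-b10r1-16636 and −0.340 to 0.0404 at ath-b10r1-5823. The cause of these changes was not tested. Depth limits the 223 members under 10 counts, which were not tested.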
